A study of Mus musculus with 6 samples.

Results

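The collagen genes were taken as every gene whose symbol on the Illumina BeadChip is Col, a number, the letter a and a number. There were 41 such genes with 91 probes, out of 45281 probes on each array. A probe counted as above background on an array where its detection p, which ranks it among the negative controls, was under 0.05. Of the 41 genes, 26 had a probe above background on at least 3 of 6 arrays and were tested among 11346 genes, and the other 15 were not. The arrays measured liver RNA of newborn mice, with 3 arrays of Igf2 knockout (KO) livers and 3 of wild-type (WT) livers, all of mixed 129 and C57Bl/6 descent. The gene Igf2 codes for insulin-like growth factor 2, which drives growth before birth. The labels leave unsaid which part of Igf2 was removed, how many pups an array stands for and which pups were littermates. The p-values below therefore rest on the spread between arrays, and part of that spread may be technical.

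Collagens are the main structural proteins of the extracellular matrix, built from 3 alpha chains wound into a triple helix. Fibrillar collagens such as types I, III and V form the fibres of connective tissue, type IV forms the sheet of basement membranes, and type VI forms beaded filaments near cells. In liver they lie around portal tracts and vessels and along the sinusoids, and are made mostly by hepatic stellate cells, portal fibroblasts and endothelial cells.

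The label of the knockout was checked on Igf2 itself. Its deposited intensity was 9337, 11866 and 9676 on KO arrays 1 to 3, against 19805, 19195 and 18656 on WT arrays 1 to 3, a log2 difference of -0.91 ± 0.11 (SE; limma adjusted p = 0.0022). Igf2 was thus lower on every KO array than on any WT array, but a strong signal remained on the KO arrays. Where its probe lies relative to the removed part was not analysed here, so it is unknown how much of that signal is intact transcript. KO arrays 1 and 2 stood apart in another way. All 14 markers of lung tissue were above background on both, 7 on KO array 3 and 5 on each WT array, and their summed intensity was 9566, 24643 and 927 on the KO arrays, against 1047, 912 and 899.8 on the WT arrays. On KO array 3, Sftpc (surfactant protein C) was at 66.4 and Scgb1a1 (a secretoglobin of club cells) at 42.9, both above every WT array (10.7 and 8.1 at most). So was Ager (105.3, against at most 84.7), while Sftpd (62.4, against 136.1 to 174.5), Rtkn2 and Foxf1 were below every WT array. Napsa and Rtkn2 carried most of the sum on KO array 3 and on the WT arrays, so it says little about the other markers there. The surfactant genes Sftpb and Sftpa1 and the markers Cldn18 and Lamp3 were not above background on KO array 3. Collagen values on KO array 3 are therefore given apart. All 8 hepatocyte markers were above background on all 6 arrays, with summed intensities of 117672 to 119786 on the KO arrays and 121229 to 124099 on the WT arrays. Xist, the RNA of the inactive X chromosome in females, was at 1984, 1823 and 17.9 on the KO arrays, against 1018, 4.1 and 5.4 on the WT arrays, while the Y-linked Eif2s3y was at 619.2 to 1055 on the KO arrays and 886.6 to 1085 on the WT arrays. KO arrays 1 and 2 and WT array 1 thus held Xist and Y-linked RNA together. The number of arrays limits the precision, and in whole liver fewer cells of a type and less RNA per cell cannot be told apart.

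Col27a1 fell in KO livers, and it was the 1 collagen gene of 26 that passed the test (limma, adjusted p under 0.05 by Benjamini-Hochberg over 11346 genes). No collagen gene rose by that test, where 8 of 26 had an unadjusted p under 0.05, 7 of them with a higher KO mean. Of all genes 33.6% had an unadjusted p under 0.05, so the collagen share was near the background. At the adjusted threshold 16.7% of all genes changed, with 8.49% of all genes lower and 8.23% higher in KO livers. The median log2 difference was 0.061 over the 26 collagen genes and 0.022 over all genes, and 15 collagen genes had a higher and 11 a lower KO mean. Values of the KO and WT arrays did not overlap for 9 of the 26 collagen genes, against 39.1% of all genes. KO was the higher side for Col4a2, Col4a5, Col5a1, Col6a2, Col7a1 and Col13a1, and the lower side for Col14a1, Col18a1 and Col27a1.

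**Figure D1:**
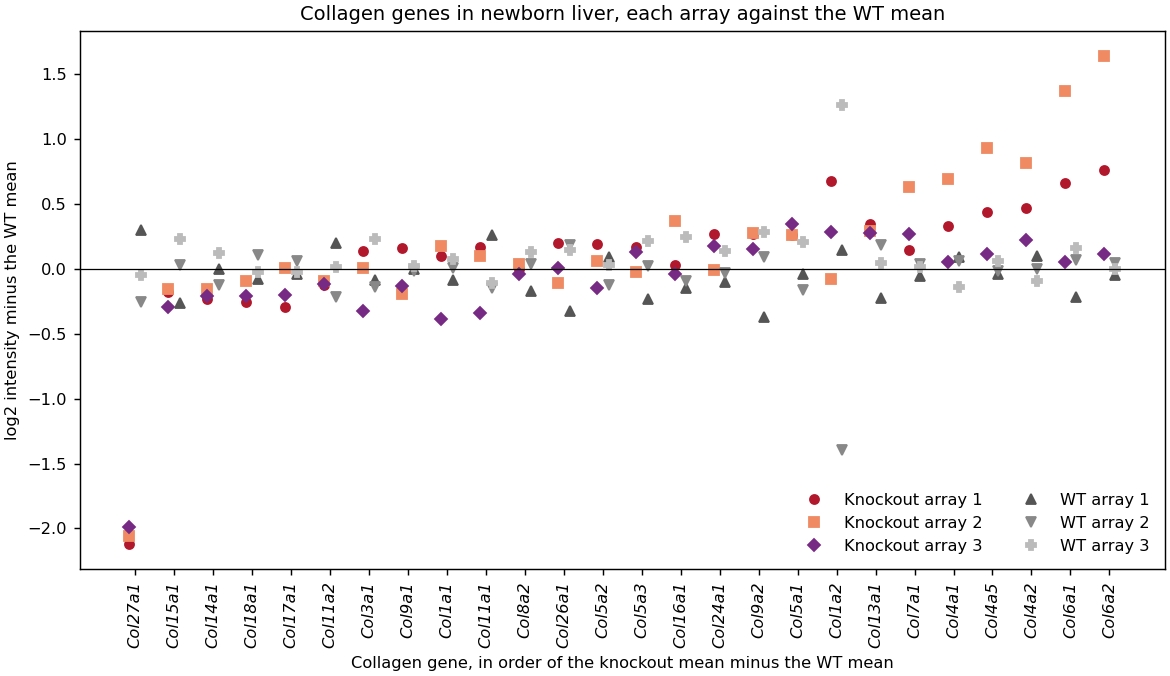
Each column is 1 of the 26 collagen genes tested, and each mark is 1 array's log2 intensity minus the mean of the 3 WT arrays, with KO arrays drawn left of WT arrays. Col27a1 lies near -2.06 on all 3 KO arrays, while the type VI genes at the right end are spread widely between KO arrays, with KO array 2 at the top and KO array 3 near the WT arrays.

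Col27a1 encodes the single chain of type XXVII collagen, a fibrillar collagen best known from cartilage. Its log2 intensity was 5.91, 5.97 and 6.04 on KO arrays 1 to 3, against 8.33, 7.78 and 7.98 on WT arrays 1 to 3. All 3 KO arrays lay close together and far below the dimmest WT array. The means were 5.97 ± 0.067 in KO livers and 8.03 ± 0.28 in WT livers (SD, n = 3 each), a difference of -2.06 ± 0.14 (SE; limma adjusted p = 0.000228). On the linear scale of the deposited table the KO mean was 47.1 ± 2.90 and the WT mean 249 ± 52.2 (SD, n = 3 each). KO livers thus had 18.9% of the WT intensity. The gene was above background on all 6 arrays. KO array 3 set alone against the WT arrays gave -1.99 ± 0.23 (SE; limma adjusted p = 0.024), where the lone array is assumed to vary like the WT arrays and 2.01% of all genes changed. That comparison rests on 1 KO array, on which Sftpc and Scgb1a1 were also above the WT arrays.

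Other probes of Col27a1 were read as a check on the probe that represents the gene, the brightest. Another probe above background on all 6 arrays had intensities of 37.5, 43.2 and 36.9 on the KO arrays, against 98.4, 63.2 and 81.7 on the WT arrays. It changed in the same direction but by less, -0.80 ± 0.14 on the log2 scale (SE; limma adjusted p = 0.00829 in a fit of every kept probe, where 16.8% of probes changed). The remaining probe was not above background on any array. Its intensities were 6.4 to 9.0 on the KO arrays and -1.0 to 5.5 on the WT arrays. Which transcripts of Col27a1 each probe binds was not analysed here.

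**Figure D2:**
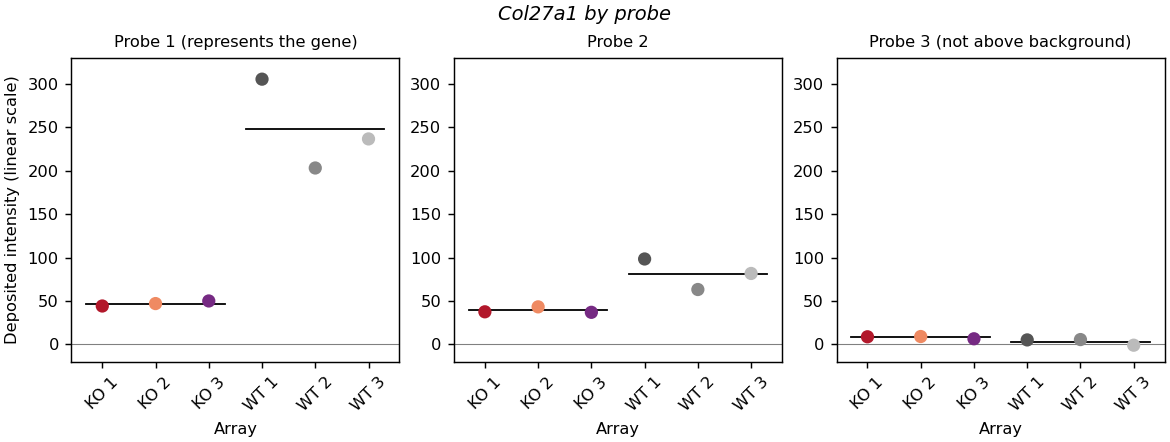
Deposited intensity of the 3 Col27a1 probes on each array, with KO arrays left of WT arrays and a line at each group's mean (n = 3 each). In the left and middle panels every KO array lies below every WT array, and the probe in the right panel was above background on no array.

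The promoter of Col27a1 is shown because it is the collagen gene whose level differed. RefSeq places this window, which runs from 250 bases before the start of the gene to 50 bases after it, at chr4:63215162-63215461 on the plus strand of GRCm38.p6. It reads 5′ to 3′, with matches to the GC box in capitals:
Col27a1: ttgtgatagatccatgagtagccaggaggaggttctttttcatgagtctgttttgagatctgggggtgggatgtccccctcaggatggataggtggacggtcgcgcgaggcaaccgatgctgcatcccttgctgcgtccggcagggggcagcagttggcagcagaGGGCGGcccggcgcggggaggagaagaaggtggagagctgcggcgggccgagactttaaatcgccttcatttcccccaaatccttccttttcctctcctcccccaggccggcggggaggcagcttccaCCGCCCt
The window was searched on both strands for the GC box (GGGCGG), the CCAAT box (CCAAT) and the TATA box (TATAAA). It held 2 matches to the GC box and 0 to each of the others, and 61.7% of its bases were G or C. GC box letters stood in 23 of 36 windows of collagen genes (63.9%, 33 of the 41 genes having a window) and in 35.7% of all 32851 windows of the table. CCAAT box letters stood in 36.1% of the collagen windows and 37.4% of all windows, and TATA box letters in 13.9% and 13.6%. A match describes letters and does not show that a factor binds there.

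The other fibrillar chains of liver showed no change that passed the test. Col1a1, a chain of type I collagen, had log2 intensities of 9.19, 9.27 and 8.70 on the KO arrays, against 9.01, 9.10 and 9.17 on the WT arrays. KO arrays 1 and 2 lay above every WT array and KO array 3 below them all, so the groups overlap and the mean difference was -0.036 ± 0.15 (SE; limma adjusted p = 0.896). KO array 3 alone gave -0.39 ± 0.15 (SE; limma adjusted p = 0.249). Col1a2, the partner chain of type I, had intensities of 89.6, 46.4 and 64.3 on the KO arrays, against 56.8, 5.2 and 141.6 on the WT arrays. WT array 2 was not above background for Col1a2 and WT array 3 was the brightest of all, so the WT arrays alone span the KO range (difference 0.29 ± 0.59 on the log2 scale, limma adjusted p = 0.763).

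Type III and type V fibrils are built alongside type I. Col3a1, the chain of type III collagen, was at 7.76, 7.63 and 7.30 log2 on the KO arrays, against 7.54, 7.49 and 7.85 on the WT arrays, and the groups overlapped (difference -0.061 ± 0.15, limma adjusted p = 0.814). Another kept probe of Col3a1 gave -0.45 (limma adjusted p = 0.21). Col5a2, a chain of type V collagen, was at 7.25, 7.12 and 6.91 on the KO arrays, against 7.15, 6.94 and 7.09 on the WT arrays, again overlapping. Its partner chain Col5a1, which limits fibril thickness, behaved differently on the arrays. Col5a1 was at 10.85, 10.86 and 10.94 on the KO arrays, against 10.56, 10.43 and 10.80 on the WT arrays. Every KO array was above every WT array, KO array 3 was the brightest, and the difference of 0.29 ± 0.11 (SE) did not pass the test (limma adjusted p = 0.116), but did without WT array 3 (0.39, limma adjusted p = 0.0371). The other fibrillar genes, Col5a3, Col11a1, Col11a2 and Col24a1, differed by -0.11 to 0.14 on the log2 scale, and over all 10 fibrillar genes tested the median was 0.0032.

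Type IV collagen of basement membranes was tested through 3 genes, with a median difference of 0.49 on the log2 scale, and 0 of the 3 passed the limma test, where 2 had an unadjusted p under 0.05, as 33.6% of all genes did. Col4a1, a chain of the type IV network found in all basement membranes, was at 11.57, 11.93 and 11.29 log2 on the KO arrays, against 11.32, 11.29 and 11.09 on the WT arrays. KO arrays 1 and 2 lay above every WT array and KO array 3 within the WT range (difference 0.36 ± 0.16, limma adjusted p = 0.169). Col4a2, the chain that pairs with it, was at 10.49, 10.84 and 10.25 on the KO arrays, against 10.12, 10.02 and 9.93 on the WT arrays. Here every KO array was above every WT array, and the difference of 0.50 ± 0.15 (SE) missed the threshold (limma adjusted p = 0.061). Col4a5, a chain of more specialised basement membranes encoded on the X chromosome, was at 6.77, 7.26 and 6.45 on the KO arrays, against 6.29, 6.31 and 6.39 on the WT arrays. All KO arrays were again the brighter ones, with a difference of 0.49 ± 0.19 (SE; limma adjusted p = 0.113), and another Col4a5 probe gave 0.45 (limma adjusted p = 0.249).

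Col4a1 and Col4a2 lie head to head and are read away from each other, and their promoter windows are shown because the windows share sequence and both genes had their highest level on KO array 2. RefSeq places the Col4a1 window at chr8:11312777-11313076 on the minus strand of GRCm38.p6 and the Col4a2 window at chr8:11312555-11312854 on the plus strand. Capitals mark the 78 bases that the windows share, as reverse complements of each other:
Col4a1: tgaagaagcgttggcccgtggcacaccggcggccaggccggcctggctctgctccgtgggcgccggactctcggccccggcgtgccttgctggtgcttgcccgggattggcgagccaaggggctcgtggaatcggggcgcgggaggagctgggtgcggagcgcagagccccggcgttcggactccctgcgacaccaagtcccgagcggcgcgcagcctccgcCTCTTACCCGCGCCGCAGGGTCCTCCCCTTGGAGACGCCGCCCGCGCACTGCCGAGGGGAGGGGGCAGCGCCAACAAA
Col4a2: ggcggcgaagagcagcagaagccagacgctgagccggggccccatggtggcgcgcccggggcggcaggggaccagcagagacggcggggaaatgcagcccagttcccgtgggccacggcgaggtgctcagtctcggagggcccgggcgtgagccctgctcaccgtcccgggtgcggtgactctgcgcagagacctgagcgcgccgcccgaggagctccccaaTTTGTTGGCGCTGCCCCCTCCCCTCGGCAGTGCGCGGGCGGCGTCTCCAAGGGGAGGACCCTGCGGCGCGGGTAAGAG
G and C made up 74.0% of the Col4a1 window and 73.7% of the Col4a2 window. The Col4a1 window held 1 match to the GC box and 1 to the CCAAT box, and the Col4a2 window 3 and 1. RefSeq's gene table also places Col4a3 beside Col4a4, Col6a1 beside Col6a2 and Col3a1 beside Col5a2.

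Of the collagen genes tested, Col6a2 and Col6a1 of type VI collagen had the widest spread between KO arrays. Col6a1, a chain of the beaded filament, was at 10.17, 10.88 and 9.57 log2 on the KO arrays, against 9.29, 9.58 and 9.67 on the WT arrays. KO arrays 1 and 2 lay above every WT array and KO array 3 within the WT range (difference 0.69 ± 0.30, limma adjusted p = 0.147). Another Col6a1 probe followed the same order, with intensities of 556.9, 828.1 and 340.3 on the KO arrays, against 266.8, 332.5 and 345.1 on the WT arrays. Col6a2, the chain that assembles with it, was at 7.78, 8.66 and 7.13 on the KO arrays, against 6.97, 7.06 and 7.02 on the WT arrays. KO array 3 was just above the WT arrays and KO array 2 far above them (difference 0.84 ± 0.33, limma adjusted p = 0.121). A dim probe of Col6a2, above background on 5 arrays, gave 0.059 (limma adjusted p = 0.762), so the probes disagree in size. Col6a3, the remaining main chain, was not analysed here.

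The order of the KO arrays in type IV and type VI genes was that of the summed lung markers. The gut markers Lct, Vil1, Cdx2 and Muc2 and the pancreas marker Reg1, read below, had that order too. KO array 2 was the brightest KO array for 15 of 26 collagen genes and for 34.7% of all genes, and KO array 3 the dimmest for 14 of 26 and for 29.7%. KO arrays 1 and 2 above all WT arrays with KO array 3 inside the WT range was found for Col4a1 and Col6a1, that is 2 of 26 collagen genes, and for 3.4% of all genes. KO array 3 alone differed from the WT mean by 0.053 for Col4a1, 0.22 for Col4a2, 0.11 for Col4a5, 0.055 for Col6a1 and 0.12 for Col6a2, and none of these passed the test in the fit without KO arrays 1 and 2. With KO array 3 left out instead, Col4a2 (0.64), Col4a5 (0.68), Col6a1 (1.01) and Col6a2 (1.20) passed, with limma adjusted p-values of 0.0292, 0.0353, 0.0297 and 0.0211 in that order. With the mean level of the lung markers as a covariate, the differences were -0.00016 for Col4a1, 0.17 for Col4a2, 0.042 for Col4a5, -0.044 for Col6a1 and -0.014 for Col6a2. That mean was 8.39, 9.59 and 5.67 log2 on the KO arrays, against 5.51 to 5.57 on the WT arrays. The covariate thus sets KO arrays 1 and 2 apart, and its fit is close to comparing KO array 3 with the WT arrays. It is not a separate check, and the part of lung tissue in these collagen values was not tested.

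**Figure D3:**
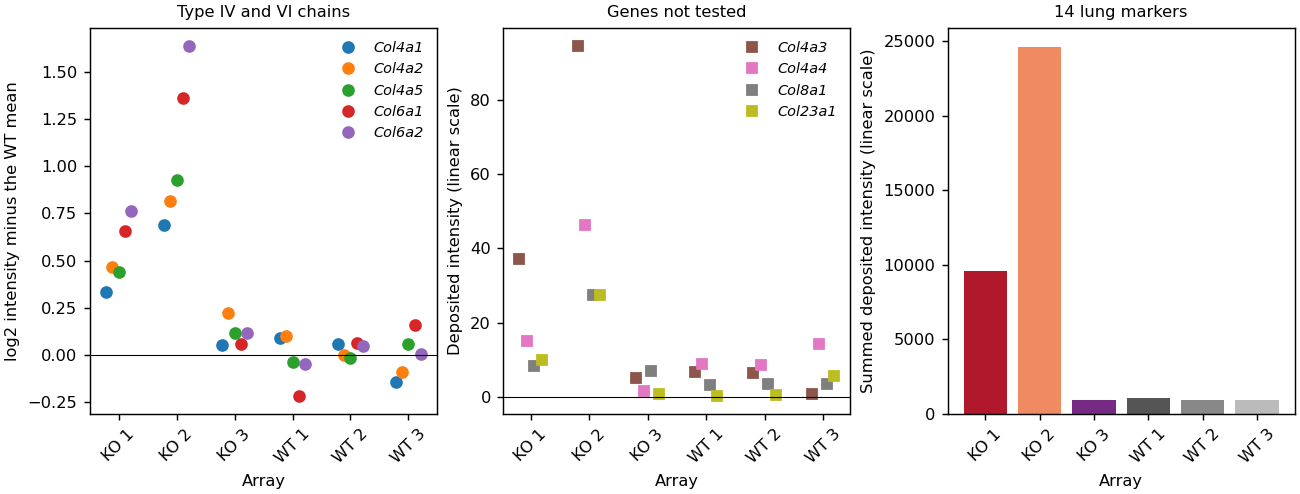
The left panel shows log2 intensity minus the WT mean for 5 type IV and type VI genes, the middle panel the deposited intensity of 4 collagen genes that were not tested, and the right panel the summed intensity of the 14 lung markers, all by array with KO left of WT. KO array 2 is the highest and KO array 1 the next for all 5 genes of the left panel and for the lung markers. The lung sum of KO array 3 (927) is close to those of the WT arrays (899.8 to 1047), but Napsa and Rtkn2 carry most of these sums.

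Among the 15 genes not tested, Col4a3 and Col4a4 encode chains of the specialised basement membranes of kidney and lung. Col4a3 had intensities of 37.2, 94.5 and 5.2 on the KO arrays, against 6.9, 6.4 and 0.8 on the WT arrays. Only KO arrays 1 and 2 were above background. The brightest Col4a4 probe was at 15, 46.2 and 1.8 on the KO arrays, against 8.9, 8.8 and 14.4 on the WT arrays, and again only KO arrays 1 and 2 were above background. Col8a1, a chain of the hexagonal network under endothelium, was at 8.4, 27.6 and 7.1 on the KO arrays, against 3.2 to 3.7 on the WT arrays, and Col23a1, a transmembrane collagen, was at 10, 27.4 and 0.8 on the KO arrays, against 0.3 to 5.8 on the WT arrays. For both of these probes only KO array 2 was above background. In a fit with no filter, Col4a3 differed by 1.09 ± 0.50 on the log2 scale (SE; limma adjusted p = 0.257), and the other 3 by 0.34 to 0.37 with adjusted p-values of 0.334 to 0.646. Col6a5 (KO array 2) and Col25a1 (1 KO and 1 WT array) were above background on 2 arrays or fewer. Col2a1, Col4a6, Col6a4, Col6a6, Col9a3, Col10a1, Col19a1, Col22a1 and Col28a1 were above background on none of the 6 arrays.

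Collagens outside the large fibril and network families differed little. Col14a1 encodes a fibril-associated collagen that sits on the surface of type I fibrils. It was at 8.33, 8.41 and 8.35 log2 on the KO arrays, against 8.56, 8.44 and 8.69 on the WT arrays. Every KO array was below every WT array, but by little (difference -0.20 ± 0.094, limma adjusted p = 0.181), and another Col14a1 probe gave -0.27 (limma adjusted p = 0.146). Col18a1, a multiplexin of basement membranes that hepatocytes make and the source of endostatin, was at 12.87, 13.03 and 12.91 on the KO arrays, against 13.04, 13.23 and 13.10 on the WT arrays. The dimmest WT array lay just above the brightest KO array, and the difference of -0.19 ± 0.093 (SE) did not pass (limma adjusted p = 0.206). Col15a1, the other multiplexin, differed by -0.21 (limma adjusted p = 0.31).

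Col7a1, the anchoring fibril collagen, and Col13a1, a transmembrane collagen of cell adhesion sites, were higher on all 3 KO arrays than on any WT array. Col7a1 was at 5.24, 5.73 and 5.37 log2 on the KO arrays, against 5.05 to 5.14 on the WT arrays (difference 0.35 ± 0.13, limma adjusted p = 0.113). Col13a1 was at 5.39 to 5.46 on the KO arrays, against 4.88 to 5.30 on the WT arrays (difference 0.31 ± 0.12, limma adjusted p = 0.115). Neither passed the test, and both are dim. The remaining genes tested, Col8a2, Col9a1, Col9a2, Col16a1, Col17a1 and Col26a1, differed by -0.16 to 0.23.

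KO array 3 by itself lay inside the WT range for 9 of 26 collagen genes (34.7% of all genes), above it for 7 and below it for 10. The 10 genes below included Col1a1, Col3a1 and Col5a2. Over the 26 genes the median difference of KO array 3 from the WT mean was -0.017 on the log2 scale, and that of KO arrays 1 and 2 was 0.13. Over all genes these medians were 0.029 and 0.016. By class, KO array 3 and the mean of KO arrays 1 and 2 had medians of 0.085 and 1.11 for type VI, 0.11 and 0.64 for type IV, and -0.13 and 0.13 for fibrillar genes. For the multiplexins these medians were -0.26 and -0.17.

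The cells that make collagen in liver were followed through their markers. For comparison, 8.23% of all genes tested rose and 8.49% fell at the same threshold. Of 13 stellate cell and portal fibroblast markers tested, 1 rose, 0 fell and the median difference was 0.084. All 14 markers of that list, with Tagln, which was not tested, summed to 16011, 17544 and 15025 on the KO arrays. The sums were 14195, 13475 and 15120 on the WT arrays, so the groups overlapped. Dcn and Reln carried most of each sum. Of the 14 markers 7 were highest on KO array 2 among all 6 arrays, and the share of all genes with that trait was not counted. KO array 2 was the brightest of the KO arrays alone for 34.7% of all genes. Acta2, 1 of the 7, was at 1664, 2986 and 888.8 on the KO arrays, against 899 to 1262 on the WT arrays. The marker that rose was Hand2, a transcription factor of stellate cells, by 0.38 ± 0.11 (SE; limma adjusted p = 0.0478). Of 9 endothelial markers tested 2 rose, Lyve1 of sinusoids (0.57 ± 0.095, limma adjusted p = 0.00762) and the VEGF receptor Flt1 (0.36 ± 0.091, limma adjusted p = 0.0365). The summed endothelial markers were 8638 to 8806 on the KO arrays and 6600 to 7609 on the WT arrays and did not overlap. Clec4g, Lyve1 and Flt1 carried most of these sums. The other markers tested, Pecam1, Cdh5, Tek, Tie1, Stab2 and Eng, each overlapped between the groups, with differences of -0.093 to 0.36. Of 3 cartilage and bone markers tested 0 changed in limma, 2 having an unadjusted p under 0.05, and that list summed to 372.7 to 446.7 on the KO arrays and 455.4 to 512.9 on the WT arrays. Sox9 carried most of that sum and overlapped between the groups (318.5 to 403.6 on KO arrays, 322.8 to 408.5 on WT arrays). Comp was at 24.6 to 31.7 on the KO arrays, against 40.1, 66.2 and 174.3 on WT arrays 2, 1 and 3 (limma adjusted p = 0.087). Summed markers of muscle (101.5 to 190.6 on KO arrays, 44.1 to 50.2 on WT arrays) and skin (316.1 to 355.4, against 269 to 278.9) were higher on every KO array. So were those of exocrine pancreas (13299 to 14369 on KO arrays, 9886 to 11081 on WT arrays) and gut (3471 to 3831, against 2735 to 3381), but 1 gene carried most of each sum, Amy2a5 (11766 to 12858 on KO arrays, 9439 to 10736 on WT arrays) and Tff3 (3110 to 3633, against 2635 to 3241). Krt10 likewise carried most of the skin sum (259.1 to 272.7 on KO arrays, 218.2 to 256.9 on WT arrays) and did not pass the test. Krt14 of the skin list passed (0.71 ± 0.15, limma adjusted p = 0.0169). Of the muscle markers tested Myl1 passed (1.37 ± 0.19, limma adjusted p = 0.00391), and Actn2 (0.40) and Myh8 (-0.20) did not. Of the 10 pancreas markers 4 were above background on any array, and of these Reg1 passed the test and had the order of the lung markers, at 806, 2135 and 51.6 on the KO arrays, against 6.5 to 13.8 on the WT arrays. The gut marker Lct was at 121.5, 263.2 and 15.3 on the KO arrays, against -0.7 to 12.7 on the WT arrays, and did not pass the test. Vil1 (64.3, 178.7 and 3.6 on the KO arrays, at most 2.6 on the WT arrays) was above background on KO arrays 1 and 2 only. So were Cdx2 (37.4, 131.3 and 2.3, against at most 1.2) and Muc2 (27, 88.5 and 10.1, against at most 6.7). Cdx1 and Tff3 showed no such rise, and Fabp2 was not above background. Lgr5, a stem cell marker in that list, fell by 0.66 (limma adjusted p = 0.0189). Sums of bile duct markers (389.9 to 792.2 on KO arrays, 401.6 to 436.9 on WT arrays) and mesothelial markers (487.5 to 846.3, against 422.9 to 589.3) overlapped. Sox9 carried most of the bile duct sum. Krt19, in both lists, was at 60.2, 109.6 and 23.6 on the KO arrays, against 2.2 to 15.4 on the WT arrays. It passed the test (1.46 ± 0.37, limma adjusted p = 0.0366), and the other 2 bile duct and 4 mesothelial markers tested did not. Among these, Krt7 was at 137, 260.3 and 48.6 on the KO arrays, against 23.7 to 65.2. The part of these cells in the collagen values was not tested.

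Genes that make, trim, bind and break down collagen were read from lists of its partners. Of all 11346 genes tested, 8.23% rose and 8.49% fell at the same threshold, and the counts of each list below stand beside those shares. Whether any list departs from them was not tested. In folding and secretion, 1 of 21 genes tested rose and 2 fell, and the median difference was -0.055. P4ha2, a catalytic subunit of the prolyl 4-hydroxylase that stabilises the triple helix, was at 6.95, 6.85 and 6.87 log2 on the KO arrays, against 6.21, 6.42 and 6.31 on the WT arrays. All KO arrays were higher, by 0.58 ± 0.091 (SE; limma adjusted p = 0.00617). Mia2, which loads large cargo such as procollagen at exit sites of the endoplasmic reticulum, was at 5.84, 5.58 and 6.02 on the KO arrays, against 7.16, 7.35 and 6.77 on the WT arrays. It fell by 1.28 ± 0.17 (SE; limma adjusted p = 0.00322), without overlap of the groups. Sec23a, a coat protein of the vesicles that leave there, also fell by 0.56 ± 0.086 (SE; limma adjusted p = 0.00564). Serpinh1, the collagen chaperone HSP47, did not pass (-0.31, limma adjusted p = 0.23).

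In processing and crosslinking, 0 of 8 genes tested rose and 2 fell. Pcolce2, which enhances the removal of the C-terminal propeptide of procollagen, was at 8.62, 8.10 and 8.23 log2 on the KO arrays, against 10.74, 10.58 and 10.91 on the WT arrays. The KO arrays were far below the WT arrays (difference -2.43 ± 0.15, SE; limma adjusted p = 0.000197). Bmp1, the protease that cuts off that propeptide, was at 9.55, 9.70 and 9.72 on the KO arrays, against 10.18, 10.08 and 10.10 on the WT arrays, and fell by 0.47 ± 0.090 (SE; limma adjusted p = 0.0134). Its call was lost without KO array 1 (limma adjusted p = 0.0638) and without WT array 1 (0.0548).

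In degradation, 2 of 15 genes tested rose and 0 fell. Ctsl, cathepsin L, a lysosomal protease that digests collagen, was at 10.26, 10.05 and 10.61 log2 on the KO arrays, against 8.85, 8.78 and 8.20 on the WT arrays. The KO arrays were all higher, by 1.70 ± 0.21 (SE; limma adjusted p = 0.0021). Timp3, a matrix-bound inhibitor of metalloproteinases, was at 9.67, 10.21 and 9.35 on the KO arrays, against 8.70, 9.04 and 8.81 on the WT arrays, a rise of 0.89 ± 0.21 (SE; limma adjusted p = 0.0276). KO array 2 was again the brightest for Timp3, and the call was lost without KO array 1, WT array 1 or WT array 3, with limma adjusted p-values up to 0.0949.

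Of 11 collagen receptors tested, 2 rose and 2 fell. Itga2, the alpha 2 subunit of a collagen-binding integrin, had intensities of 95.1, 48.1 and 88.8 on the KO arrays, against 4.9, 21.9 and 21.0 on the WT arrays, and rose by 1.47 ± 0.24 on the log2 scale (SE; limma adjusted p = 0.00743). WT array 1 was not above background for it. Itga1, the alpha 1 subunit of the related integrin, was at 7.02, 7.04 and 6.97 log2 on the KO arrays, against 7.53, 7.62 and 7.70 on the WT arrays, and fell by 0.60 ± 0.086 (SE; limma adjusted p = 0.00411). The 2 integrin subunits thus differed in direction. Lair1, an inhibitory receptor of immune cells, fell by 0.52 ± 0.11 (SE; limma adjusted p = 0.0214), which was lost without WT array 1 (0.0716) or WT array 2 (0.0537), and the macrophage mannose receptor Mrc1 rose by 0.32 ± 0.087 (SE; limma adjusted p = 0.0438), which was lost on leaving out any array but WT array 2 (up to 0.128).

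**Figure D4:**
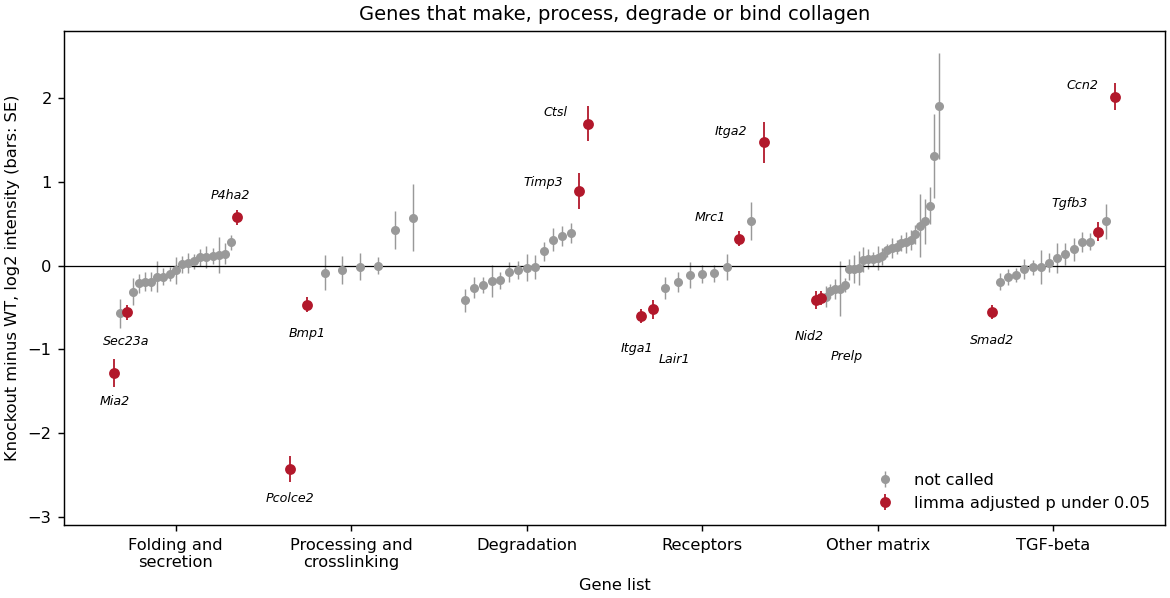
Each point is 1 tested gene of 6 lists of collagen partners, placed by its difference in log2 intensity, KO minus WT, with its limma standard error as a bar; red points passed at an adjusted p under 0.05. Ctsl, Itga2 and Ccn2 lie well above 0 and Pcolce2 and Mia2 well below it, while most genes of each list lie near 0.

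Among 27 other matrix proteins tested, 0 rose and 2 fell. These were Prelp, a leucine-rich proteoglycan that links collagen to basement membrane (-0.39 ± 0.086, limma adjusted p = 0.0231), and Nid2, a nidogen of basement membranes (-0.41 ± 0.11, limma adjusted p = 0.0415). The Nid2 call was lost on leaving out any 1 array (adjusted p up to 0.114), and the Prelp call without any 1 KO array or WT array 2 (up to 0.0842). Eln (elastin) and Mgp (matrix Gla protein), chosen here after their values were seen, had the array order of type VI collagen. Eln had intensities of 811.9, 1642 and 314.7 on the KO arrays, against 338.8, 277.7 and 268.1 on the WT arrays, and Mgp 556.3, 1208 and 147.9, against 102.7, 145.9 and 97.6. Neither passed the test (limma adjusted p = 0.111 for Eln and 0.0764 for Mgp).

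Signalling by TGF-beta, the main inducer of fibrillar collagen genes in stellate cells, was read through 16 genes tested, of which 2 rose and 1 fell. Ccn2, connective tissue growth factor and a target of TGF-beta and of YAP, was at 10.89, 11.36 and 10.73 log2 on the KO arrays, against 8.89, 8.92 and 9.12 on the WT arrays. The groups were far apart, with a rise of 2.02 ± 0.17 (SE; limma adjusted p = 0.000481). Smad2, which carries the TGF-beta signal to the nucleus, fell by 0.55 ± 0.085 (SE; limma adjusted p = 0.00564), and the ligand Tgfb3 rose by 0.40 ± 0.11 (SE; limma adjusted p = 0.0485), a call lost on leaving out any 1 array (up to 0.133). Tgfb1, the ligand most studied in liver fibrosis, differed by -0.019 (limma adjusted p = 0.904). Without KO arrays 1 and 2, the calls of Col27a1, Pcolce2, Ctsl, Itga2, Ccn2 and Igf2 held, and those of the other 12 genes of these 6 lists were lost while their direction stayed. That fit holds 1 KO array, which the fit of all 6 arrays holds too, so their differences are not independent. In it P4ha2 (0.55), Sec23a (-0.54), Itga1 (-0.64), Prelp (-0.39), Smad2 (-0.51) and Mrc1 (0.29) kept about their size. Mia2 (-1.08), Bmp1 (-0.40), Lair1 (-0.43) and Tgfb3 (0.32) differed by less than in the fit of all 6 arrays, and Nid2 (-0.59) by more. Timp3 differed by 0.50 without KO arrays 1 and 2, against 0.89 in the fit of all 6 arrays.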

How the data were processed

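Total liver RNA was hybridised to 6 Illumina BeadChips, grouped by the genotype in the labels. The authors deposited probe intensity on a linear scale and, in 1 table, detection p-values per probe and array. Tested on the values, the deposited intensity table is already background-subtracted and normalized between arrays (25.0% to 25.1% of values below 0, and sorted intensities differing by at most 0.2); the software is not given in the sources used here. Probes were named through the platform annotation, updated to RefSeq symbols (34885 of 45281 probes had 1 symbol). limma 3.58.1 in R 4.3.3 applied neqc (normexp from detection p, offset of 16, quantile, log2), which compresses differences of dim genes. A probe was kept if at least 3 of the 6 arrays had a detection p under 0.05 (18429 probes), and each gene took its brightest. Groups were compared with lmFit and eBayes, two-sided, with Benjamini-Hochberg adjustment over 11346 genes; errors of differences are moderated standard errors. The fit was checked on made-up data with known changes before use. It recovered 35.2% of changes of 0.5 on the log2 scale, 81.6% of changes of 1 and 97.0% of changes of 2. A gene that did not pass may therefore still differ by 0.5, and some changes of 1 or more are missed as well. Collagen genes and all gene lists were chosen with earlier results of these data known. Values by array are given for collagen genes that changed or that form the main liver collagens, and for others by range, apart from those whose arrays did not overlap or that were bright on KO arrays 1 and 2, chosen after their values were seen. From each partner list up to 4 changed genes with the smallest p in each direction were named, and Serpinh1 and Tgfb1 were added by hand. Normalization, offset, filter, probe choice, variance model, array weights, a replicate block, sex and lung covariates and left-out arrays were varied.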

Additional observations from a re-analysis of the deposited data

How the results depend on the processing

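Col27a1 was lower and passed the test in 18 of 18 alternatives of the gene fit, with differences of -2.38 to -1.43 on the log2 scale and adjusted p-values up to 0.024, and the count of collagen genes lower in KO was 1 in all 19 settings beside the main one. The count of collagen genes higher in KO, 0 in the main setting, was 1 with an offset of 50, 1 with a trend and robust variance model (Col4a2 each time) and 3 with array weights (Col4a2, Col5a1 and Col13a1), and ranged from 0 to 4 when 1 array was left out. Over all genes, 1897 changed in the main setting, 3025 with array weights, 1156 with a sex covariate, 636 with a lung covariate and 228 without KO arrays 1 and 2, where the lone KO array is assumed to vary like the WT arrays. The count was 849 to 1880 when 1 array was left out. No result changed sign while past the threshold. Replicate numbers did not pair the arrays (correlations of deviations -0.0044, 0.028 and 0.015 for the 3 numbers), and a replicate block gave 1323 changed genes and lost the calls of Mrc1, Prelp, Nid2 and Tgfb3. The lung covariate lost P4ha2 (0.57, 0.58 in the main setting), Sec23a (-0.52, main -0.56), Smad2 (-0.49, main -0.55), Bmp1 (-0.43, main -0.47), Prelp (-0.38, main -0.39), Nid2 (-0.59, main -0.41), Lair1 (-0.37, main -0.52), Mrc1 (0.29, main 0.32), Tgfb3 (0.30, main 0.40) and Timp3 (0.42, main 0.89), all on the log2 scale. The sex covariate lost Timp3, Mrc1, Lair1, Prelp, Nid2 and Tgfb3, no filter lost Timp3, Nid2 and Tgfb3, the mean of kept probes lost Timp3 (0.58), no further background correction lost Mrc1 and Nid2, and an offset of 50 and the trend and robust model each lost Tgfb3. The cause of these changes was not tested. Groups of 3 arrays and signals near background limit the dim collagens.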
